A study of Mus musculus with 3 samples.

Results

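The cytosolic ribosomal protein genes encode the proteins of the large and small subunits of the cytosolic ribosome. Their members were taken by symbol (Rpl or Rps followed by a number, plus Rpsa, Rplp0, Rplp1 and Rplp2, without pseudogene names), with a mean of at least 0.05 UMI per cell over all cells kept. A UMI (unique molecular identifier) stands for 1 captured RNA molecule. Of 31053 genes listed, 83 symbols matched and 80 passed the minimum, 48 of the large subunit and 32 of the small subunit. The mean level chose the members, so it is given below only as a description. The 3 symbols below the minimum were Rpl3l with 0.0000505, Rpl10l with 0.000202 and Rpl39l with 0.00536 UMI per cell. The lowest 4 above it were Rpl7l1 with 0.474, Rps27l with 0.604, Rpl13a with 0.691 and Rpl22l1 with 0.713 UMI per cell.

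The ribosome translates mRNA into protein, and its proteins are made in step with each other and with ribosomal RNA. Most of their mRNAs begin with a tract of pyrimidines at the 5′ end (the TOP tract), through which mTOR signalling and Larp1 control their translation. In myeloid cells, as in other cells, demand for ribosomes is known to go with growth, activation and differentiation.

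Single cells were sequenced from both hippocampi of mice of the genotype Cx3cr1CreERT2/+; Rosa26tdTomato/+; NestinTK-eGFP/+, in which tamoxifen switches on tdTomato in cells that use the Cx3cr1 promoter. Tamoxifen, 100 mg/kg on each of 4 days, was given to all animals, and no other agent is named. The 3 runs form a single group from 12 animals, 6 male and 6 female, which the labels do not assign to runs. With the run as a block, p-values set the difference within runs against its spread between runs. The fit shares information on that spread over genes, so it is not each gene's own spread alone. That spread may be partly technical. The Cx3cr1 promoter is used by microglia, by macrophages at the borders of the brain and by monocytes, and the CreERT2 allele takes the place of 1 copy of Cx3cr1.

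After filters, 6993, 6720 and 6078 cells were kept in runs 1, 2 and 3, with a median of 4425, 3438 and 3696 UMIs per cell. Runs shared 7 to 10 barcodes per pair. Cells were divided by marker genes into reference microglia (17885 cells, with at least 3 of 10 microglia markers and no other gate met) and 11 smaller populations, and 5 cells fell into none. All 10 microglia markers were detected in the reference microglia, at a summed level of 35337, 45635 and 36211 CPM (UMIs of a gene per 1000000 UMIs of the sum), and neutrophil markers were at or near 0. Levels are in CPM of counts summed over the cells of a population in a run. Since a UMI counts a molecule whatever its length, levels were not divided by gene length.

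In reference microglia the 80 members made up 8.82% ± 0.29 of UMIs (SD, n = 3 runs), with 9.15%, 8.59% and 8.71% in runs 1, 2 and 3. Of the 200 genes of highest level there, 64 were members. The mean level of a member ranged from 117 to 4445 CPM around a median of 1085 CPM, and 4 members were below 200 CPM. Over all cells the highest were Rps29 with 19.4 UMIs per cell, Rplp1 with 13.5, Rps24 with 8.07, Rpl13 with 7.72 and Rpl35a with 7.68. Rps24, Rpl13, Rpl35a and Rps29 are core proteins of their subunits, and Rplp1 belongs to the stalk that brings elongation factors to the ribosome. Single cells differed widely, from 5.81% to 13.5% between the 5th and 95th percentile in run 1, 5.08% to 13.3% in run 2 and 5.45% to 13.03% in run 3. The SD over cells was 2.45 to 2.64 percentage points, against 0.443 to 0.491 from counting alone. The share hardly followed depth, with a Spearman correlation of 0.046, 0.077 and 0.025 with UMIs per cell across the reference microglia of runs 1, 2 and 3, cells that share a library.

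All 80 members were protein-coding in the GENCODE M21 annotation of GRCm38 and lay on 19 chromosomes, 14 of them on chromosome 7 and 4 on the X chromosome. RefSeq promoter windows on GRCm38.p6 were found for 60 of the 80. In the stretch from 20 bases before to 30 bases after the annotated start, the longest unbroken run of C or T on the gene's strand had a median of 9 bases over those 60 members and 5 over 27025 genes. A run of at least 8 was present in 34 of 60 members (56.7%), against 21.5% of all genes, and a run of at least 10 in 41.7% against 10.1%. A gene with several windows counted by its longest run. The lines below show that stretch for members on which the results turn, with the longest run of C or T in capitals. Rpl10a and Rps27l each have another window that is not printed, with a longest run of 7 and 5 bases. In the lines the run sits close to the start in some (Rpl38, Rps27, Rpl22l1) and is short in others (Rps2, Rps4x, Rpl7l1).
Rpsa, chr9:120127746-120127795, plus strand: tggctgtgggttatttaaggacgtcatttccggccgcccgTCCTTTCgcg
Rps2, chr17:24720043-24720092, plus strand: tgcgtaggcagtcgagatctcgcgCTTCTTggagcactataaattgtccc
Rpl10a, chr17:28328545-28328594, plus strand: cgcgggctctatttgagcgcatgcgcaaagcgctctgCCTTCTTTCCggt
Rpl38, chr11:114668560-114668609, plus strand: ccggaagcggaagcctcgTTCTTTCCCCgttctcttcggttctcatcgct
Rps4x, chrX:102189362-102189411, minus strand: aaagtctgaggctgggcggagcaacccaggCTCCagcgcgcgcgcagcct
Rps27, chr3:90213619-90213668, minus strand: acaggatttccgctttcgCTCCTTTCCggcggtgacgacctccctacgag
Rps27l, chr9:66946066-66946115, plus strand: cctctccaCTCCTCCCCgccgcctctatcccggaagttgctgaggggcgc
Rpl22l1, chr3:28805488-28805537, plus strand: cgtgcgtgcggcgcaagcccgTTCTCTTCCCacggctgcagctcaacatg
Rpl7l1, chr17:46782627-46782676, minus strand: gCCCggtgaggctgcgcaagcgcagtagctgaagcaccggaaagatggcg
A run of 10 bases begins 2 bases before the annotated start of Rpl38 and a run of 9 bases 2 before that of Rps27, while Rpl7l1 has no run above 3 bases. An annotated start can differ from the one used in these cells, and a run is a match of letters, not a shown TOP tract. Over the whole windows of 300 bases, both strands, CCGGAAG was present in 41.7% of the members and 9.93% of all genes, CTCGCGAG in 11.7% and 1.04%, GGGCGG in 63.3% and 38.2%, AAGATGG in 16.7% and 7.28%, and TATAAA in 11.7% and 15.7%. CCGGAAG is the core recognised by ETS factors and GGGCGG that recognised by Sp1.

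The share of UMIs in the members was highest in T and NK cells, MHC class II-high myeloid cells and border-associated macrophages. It was 19.8% ± 4.29 (SD, n = 3 runs) in MHC class II-high myeloid cells, 13.8% ± 2.42 in border-associated macrophages and 21.3% ± 2.81 in T and NK cells. The lowest of these values, 11.2% in border-associated macrophages of run 1, lay above the 9.15% of reference microglia in the same run. Lipid-type disease-associated microglia had 10.7%, 10.5% and 10.1% in runs 1, 2 and 3, Ccl3/Ccl4-high microglia 11.5%, 11.2% and 9.78%, and Emp3/Fxyd5/Tnfsf13b-positive cells 11.3%, 10.1% and 10.5%. In each run these values were above the reference, and among themselves they overlapped. Interferon-responsive microglia (9.16%, 9.41% and 8.90%) and microglia carrying astrocyte transcripts (9.43%, 8.02% and 7.89%) lay within 1 percentage point of the reference in every run. No test was made of these shares.

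**Figure D1:**
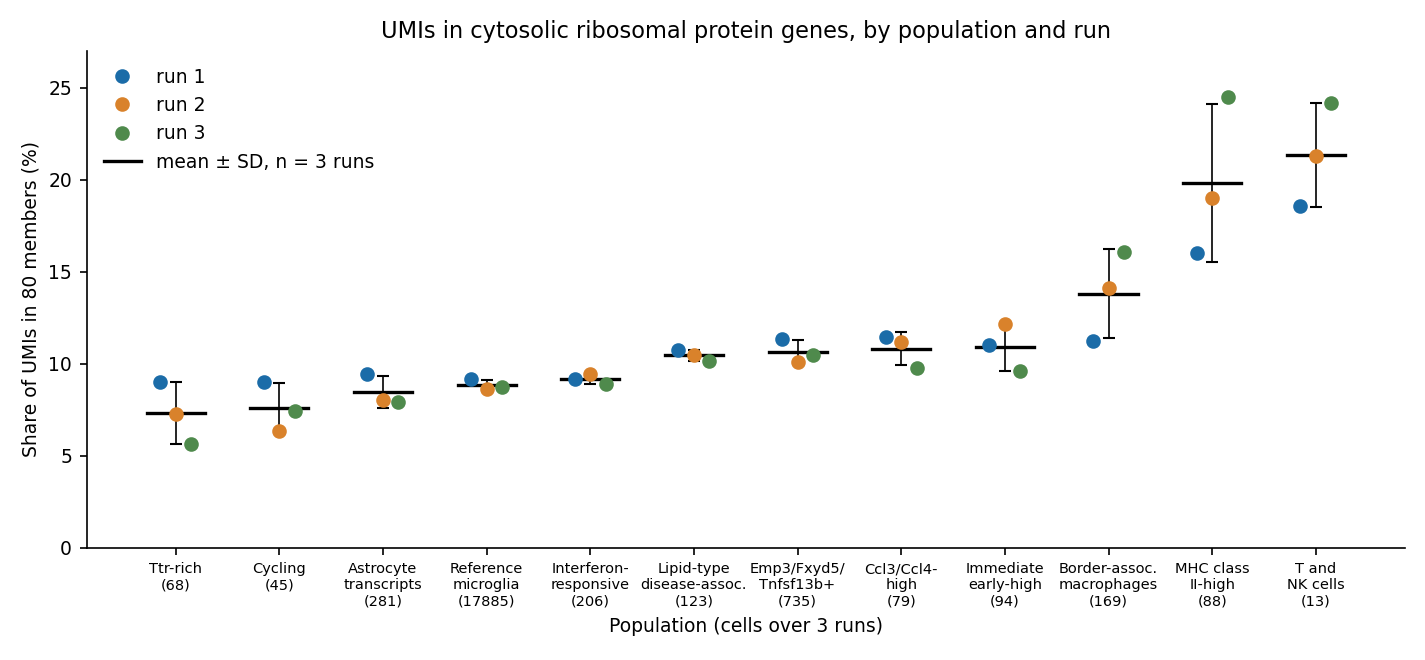
Share of UMIs (%) in the 80 members for 12 populations, ordered by mean. Points are runs, black lines the mean and bars the SD over 3 runs, and numbers in brackets are cells over the 3 runs. Reference microglia sit at 8.82%, MHC class II-high cells at 19.8%, and in border-associated and MHC class II-high cells run 1 is lowest and run 3 highest.

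MHC class II-high cells, which present antigen to T cells and here were gated on Cd74, H2-Aa, H2-Ab1 and H2-Eb1, had the largest change among the comparisons tested. The 88 cells (25, 23 and 40 in runs 1, 2 and 3) were compared with reference microglia by the edgeR quasi-likelihood test (Benjamini-Hochberg adjustment) and the run as a block. Of the 80 members 77 rose and none fell, against 8.14% of all genes called higher and 7.16% called lower. The median log2 change was 1.36 over the members and -0.20 over all genes tested. All 48 members of the large subunit but Rpl7l1 and Rplp1, and all 32 of the small subunit but Rps29, passed the test.

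Rpsa, a small-subunit protein also known as the laminin receptor, had 744, 838 and 804 CPM in reference microglia of runs 1, 2 and 3 and 2011, 3042 and 4073 CPM in MHC class II-high cells. The groups did not overlap, and its log2 change of 2.08 ± 0.33 (SE from the F statistic, n = 3 runs, adjusted p = 1.15e-08 by edgeR) was the largest of any member. Rps2, a small-subunit protein near the mRNA entry, had a log2 change of 1.79 ± 0.31, Rpl38, known from mouse skeletal patterning, 1.78 ± 0.32, and Rpl32 1.71 ± 0.34, with adjusted p of 3.56e-07, 1.06e-06 and 1.08e-05 by edgeR. In each of these genes run 1 had the smallest rise over its reference, and every MHC class II-high value was above every reference value. Rplp1 went from 3180, 3292 and 3125 CPM to 4557, 4350 and 4969 CPM without passing the test (log2 change 0.73, adjusted p = 0.18 by edgeR). The same held for Rps29 at 0.90 (adjusted p = 0.11 by edgeR), the member of highest level.

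The rise differed between runs, and so did the cells. The median log2 ratio over the members was 0.80, 1.12 and 1.51 in runs 1, 2 and 3, and the summed level of the 10 microglia markers was 19145, 9222 and 6756 CPM in the same order. Of 3 monocyte markers, Ccr2 and Plac8 were detected in every run and Ly6c2 was at 0 in run 1, and their summed level was 175, 951 and 882 CPM, against 3.38 to 4.83 CPM in the reference. The 3 B cell markers summed to 15.9 to 42.1 CPM with Cd79a and Ms4a1 at 0. Of the cells, 18 of 25, 20 of 23 and 35 of 40 met more than 1 gate, and the border-associated gate genes summed to 265, 919 and 402 CPM. The part of monocyte-type, border-associated or microglial cells in the member values was not tested. Without run 2 the count fell to 13 members and without run 3 to 39, while without run 1 it was 78. The order of the runs depended on the setting. Run 2 had the lowest share of UMIs in members with stricter gates (19.54%, 18.32% and 25.49%) and after thinning (19.69%, 17.60% and 23.61%). All cells were gated anew in both settings, so the cells were not the same. They numbered 17, 28 and 43 with stricter gates and 16, 22 and 44 after thinning.

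Border-associated macrophages, the phagocytes of meninges and perivascular spaces, showed the next largest change. In 169 cells (80, 35 and 54) gated on genes such as Pf4, Mrc1 and Ms4a7, 64 of 80 members rose and none fell, by the edgeR quasi-likelihood test (Benjamini-Hochberg adjustment), against 7.75% of all genes called higher and 4.91% called lower. The median log2 change was 0.72 over the members and -0.10 over all genes tested. The small subunit had 29 of 32 members called and the large subunit 35 of 48, and that difference was not tested. Rpl38 went from 1106, 765 and 941 CPM to 1789, 1567 and 2538 CPM, above the reference in each run (log2 change 1.18 ± 0.22, adjusted p = 2.93e-06). Rps28 followed with 1.15 ± 0.23, Rpl36 with 1.12 ± 0.22 and Rpsa with 1.08 ± 0.22. Rps29 went from 5528, 3478 and 4330 CPM to 7942, 6890 and 9302 CPM (log2 change 1.00, adjusted p = 0.000762 by edgeR).

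The call in border-associated macrophages rested on runs 2 and 3. No member was called without run 3 and 3 without run 2, against 78 without run 1, and without the run as a block 21 were called. The microglia markers summed to 22152, 13101 and 8238 CPM in runs 1, 2 and 3. Of the monocyte markers only Ccr2 was detected, at 18.3, 76.8 and 239 CPM, with Ly6c2 and Plac8 at 0. The 4 MHC class II gate genes summed to 8139, 23323 and 12426 CPM, against 35.6 to 41.4 CPM in the reference, and 62 of 80, 22 of 35 and 31 of 54 cells met more than 1 gate. The part of these in the member values was not tested. In run 1, 26 of the 80 cells (32.5%) held both Xist and Y-linked UMIs, a sign that RNA from animals of both sexes was counted under 1 barcode. Such cells made up 2.86% and 5.56% in runs 2 and 3, and 2.74% of the reference in run 1. The median border-associated cell held 7971, 4230 and 4324 UMIs in runs 1, 2 and 3, against 4369, 3409 and 3648 in the reference. The part of depth in the member values was not tested. Without the cells holding both, the share of UMIs in members was 13.3%, 14.4% and 16.3%, in place of 11.2%, 14.1% and 16.0%. Of the members 78 were then called. The order of the runs stayed the same there, but not in every setting. Run 2 was highest after thinning (12.52%, 14.24% and 13.25%) and as a median over cells (10.84%, 13.58% and 12.77%). The thinned cells were gated anew and numbered 71, 22 and 46.

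**Figure D2:**
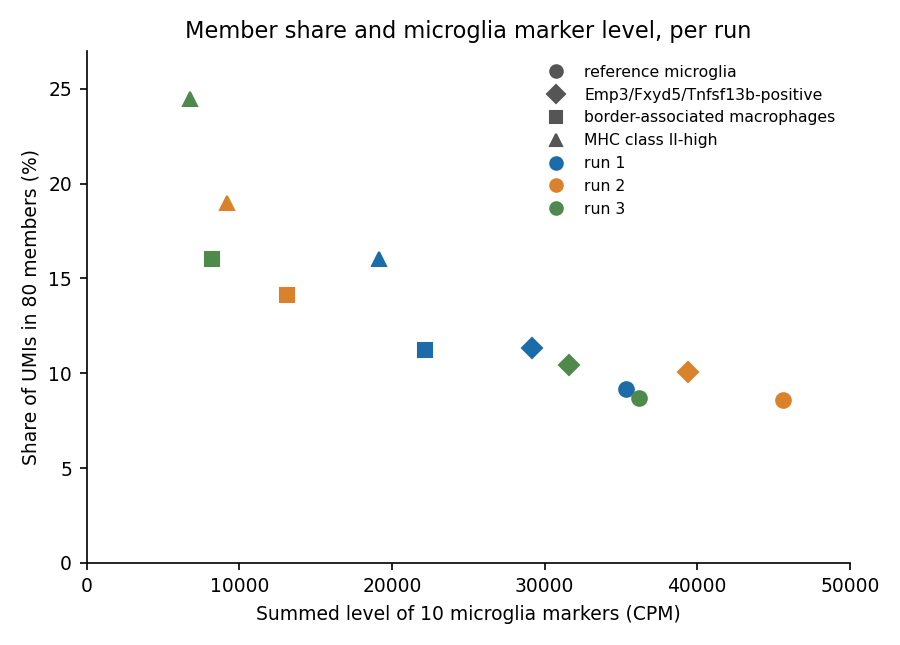
Share of UMIs (%) in the 80 members against the summed level of 10 microglia markers (CPM) for 4 populations. Each symbol is 1 population in 1 run, with colour for the run. In border-associated macrophages and MHC class II-high cells the run with the highest marker level, run 1, has the lowest share, 11.2% and 16.0%. With stricter gates or thinning, run 2 has the lowest share in MHC class II-high cells (not drawn).

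Cells positive for at least 2 of Emp3, Fxyd5 and Tnfsf13b, a population that bears no cell type name here, had a small change with little spread. Emp3 and Fxyd5 encode membrane proteins and Tnfsf13b the B cell survival factor BAFF. In 735 cells (298, 208 and 229) 79 of 80 members rose and none fell, by the edgeR quasi-likelihood test (Benjamini-Hochberg adjustment), against 5.95% of all genes called higher and 2.36% called lower. The median log2 change was 0.31 over the members and -0.01 over all genes. Rpsa had 1155, 1101 and 1120 CPM here, above each of the reference values given before (log2 change 0.54 ± 0.05, adjusted p = 1.63e-09 by edgeR). Rps2 and Rpl32 had log2 changes of 0.49 and Rpl10a, a protein of the L1 stalk, 0.46. The member that was not called, Rpl7l1, had 101, 106 and 78.5 CPM, below 117, 112 and 121 CPM in each run (log2 change -0.25 ± 0.09, adjusted p = 0.083 by edgeR). It was called lower in 4 alternatives, among them total UMIs without TMM and leaving out run 2.

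These calls depended on the setting, although 79 members were above the reference in all 3 runs. Without the run as a block none of the 80 was called. A joint fit of all populations called 1, and gates that needed 1 more marker 28, both with the run as a block. The joint fit took its dispersion from all the populations tested, in place of this population and the reference. The microglia markers summed to 29173, 39390 and 31602 CPM and the monocyte markers to 13.05, 186 and 35.9 CPM in runs 1, 2 and 3. Of the cells, 49 of 298, 23 of 208 and 23 of 229 met more than 1 gate. Cycling gate genes summed to 555.3, 183.5 and 158.9 CPM, against 8.96 to 10.6 CPM in the reference. Lipid-type gate genes summed to 334.6, 281.2 and 184.4 CPM, against 43.8 to 53.4 CPM. Ccl3 and Ccl4 summed to 354.5, 397.3 and 150.4 CPM, against 12.3, 31.2 and 64.4 CPM. Interferon gate genes summed to 250.1, 145.5 and 71.9 CPM, against 42.3 to 50.7 CPM. Astrocyte gate genes were below the reference in each run. The part of these in the member values was not tested.

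**Figure D3:**
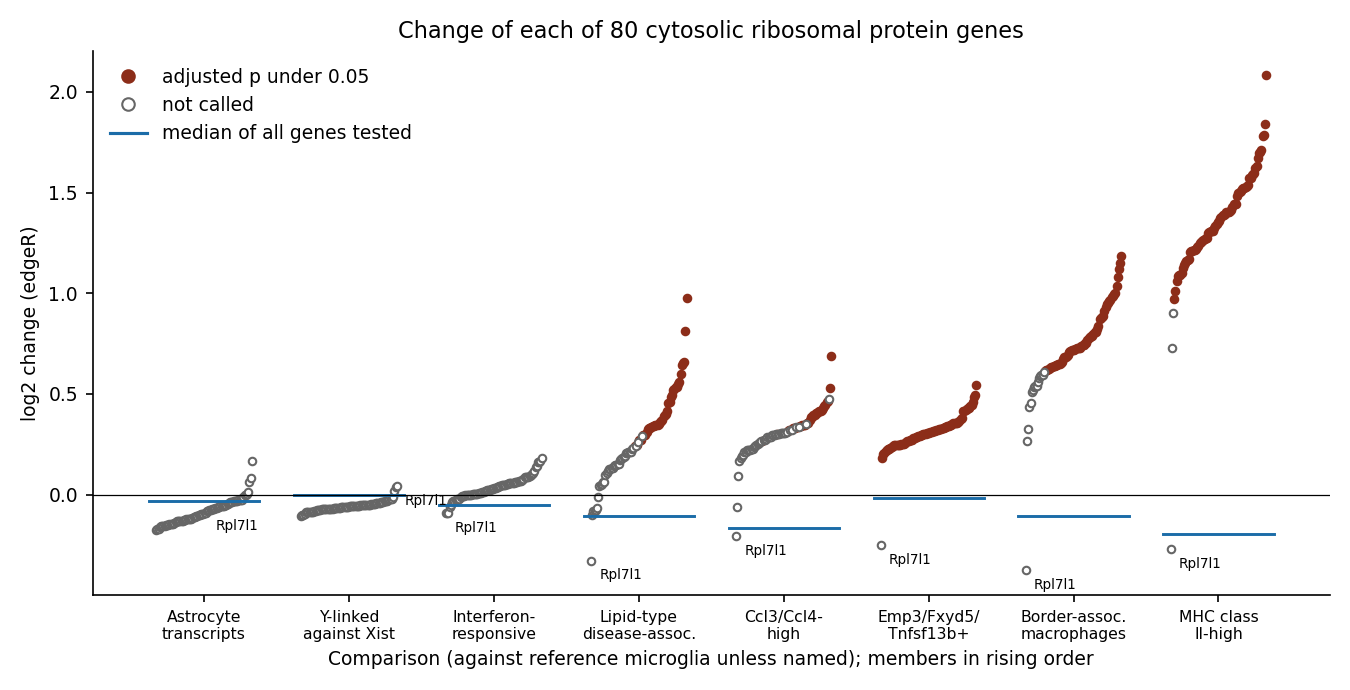
Log2 change of each of the 80 members in the 8 comparisons tested, in rising order within each comparison. Filled points had an adjusted p under 0.05 by edgeR, open points did not, and blue lines mark the median of all genes tested. MHC class II-high cells have 77 filled points and the 3 comparisons at left have none, and Rpl7l1 is below 0 in each comparison against reference microglia.

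Lipid-type disease-associated microglia, the state marked by Spp1, Lpl and Cst7 and known from ageing and plaque-bearing brain, had a rise in some of the members. In 123 cells (48, 52 and 23) 41 of 80 members rose and none fell, by the edgeR quasi-likelihood test (Benjamini-Hochberg adjustment), against 6.62% of all genes called higher and 7.57% called lower. The median log2 change was 0.27 over the members and -0.10 over all genes. Rps2 stood at 757, 803 and 751 CPM in the reference and at 1369, 1534 and 1659 CPM in these cells. The groups were far apart, with a log2 change of 0.98 ± 0.09 (adjusted p = 1.16e-25 by edgeR). Rpsa went to 1234, 1449 and 1509 CPM (0.81 ± 0.09, adjusted p = 1.57e-17), and Rpl10a from 632, 701 and 649 to 984, 1072 and 1068 CPM (0.66 ± 0.09, adjusted p = 8.39e-11). Rps27l, a paralog of Rps27 known as a p53 target, went from 144, 134 and 136 to 220, 238 and 172 CPM (0.65 ± 0.14, adjusted p = 5.93e-05). Rpl41, the smallest ribosomal protein, had a log2 change of 0.65 ± 0.09.

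Other members stayed close to the reference. Rps27, the paralog of Rps27l, had 1939, 1387 and 1635 CPM in the reference and 1715, 1418 and 1547 CPM here, lower in 2 runs and higher in 1 (log2 change -0.07, adjusted p = 0.72 by edgeR). The X-linked Rps4x had 1305, 1477 and 1440 CPM against 1251, 1514 and 1166 CPM (log2 change -0.08, adjusted p = 0.65). As a share of the member UMIs alone, 26 members were above the reference in all 3 runs and 24 below it. Where no member was called, these counts were 14 and 12 in interferon-responsive microglia and 18 and 13 in microglia carrying astrocyte transcripts. For Y-linked against Xist cells they were 9 and 14. In lipid-type microglia the shifts ran from -0.73 for Rpl7l1 to 0.74 for Rps2 on the log2 scale, with an SD over members of 0.225. The SD over members was larger in MHC class II-high cells, at 0.295, and similar in border-associated macrophages, at 0.213. It was 0.117 in Ccl3/Ccl4-high microglia, 0.0967 in Emp3/Fxyd5/Tnfsf13b-positive cells, 0.0661 in microglia carrying astrocyte transcripts and 0.0582 in interferon-responsive microglia. After Rps2 came Rpsa with 0.57, Rpl10a with 0.42, Rpl41 with 0.40 and Rps27l with 0.36, and before Rpl7l1 at the low end Rps14 with -0.38, Rps9 with -0.37 and Rps4x with -0.35. Smaller populations have more counting error in such ratios.

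Without run 2, 25 members were called in lipid-type microglia, and 5 without the run as a block. The microglia markers summed to 24216, 31434 and 23513 CPM, below the reference in each run, and monocyte markers were at 5.87, 0 and 0 CPM. Of the 8 gate genes Gpnmb was at 0 in runs 1 and 2. Mitochondrial UMIs made up 3.84%, 3.47% and 4.51% here against 2.74%, 2.22% and 2.72% in the reference, and the median cell held 6478, 5306 and 5615 UMIs against 4369, 3409 and 3648. The part of these differences in the member values was not tested.

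**Figure D4:**
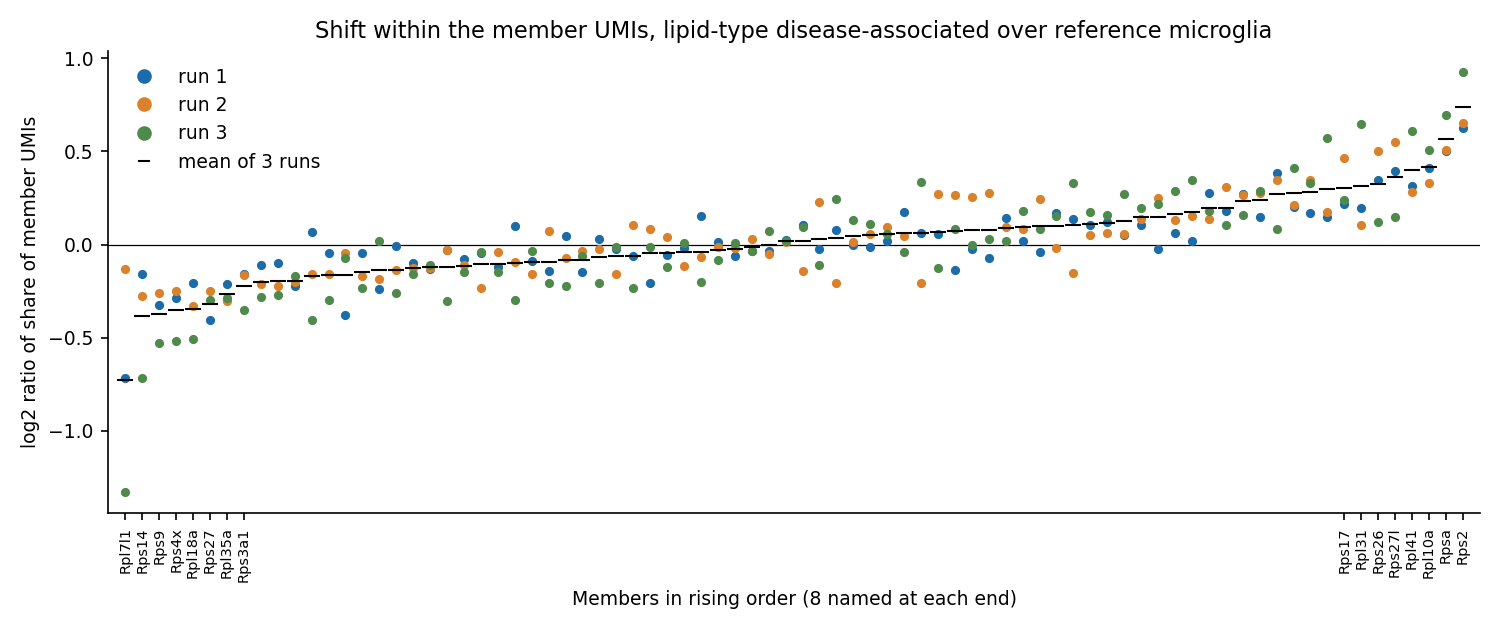
Log2 ratio of each member's share of the member UMIs, lipid-type disease-associated over reference microglia. Coloured points are runs and black dashes the mean of 3 runs, and the 8 members at each end are named. Rps2 is highest at 0.74 and Rpl7l1 lowest at -0.73, where the 3 runs lie far apart.

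Ccl3/Ccl4-high microglia were defined by at least 10 UMIs of these chemokine genes and at most 1 lipid-type marker detected. The lipid-type gate genes summed to 150.5, 273.8 and 181.8 CPM in these cells, against 43.8, 53.4 and 48.4 CPM in the reference. Of the 80 members 33 were higher and none lower, by the edgeR quasi-likelihood test (Benjamini-Hochberg adjustment). The background was 2.11% of genes called higher and 1.38% called lower. The median log2 change was 0.31 over the members and -0.16 over all genes. Rpl10a went from 632, 701 and 649 CPM to 1064, 1117 and 940 CPM (log2 change 0.69 ± 0.12, adjusted p = 1.06e-06 by edgeR). Rpl23, at the face between the subunits, had 0.53 ± 0.10, Rpl14 0.46 ± 0.13 and the tunnel protein Rpl39 0.45 ± 0.10. The 79 cells (20, 22 and 37) made this the least firm of the comparisons with a call. Without run 1 only 3 members were called and without run 2 only 1, and none was called without the run as a block or with cells thinned to 2000 UMIs. The members' median was 0.31 without the block but 0.05 after thinning. The share of UMIs in members did not shrink with thinning, at 11.76%, 11.46% and 10.25% in 14, 18 and 16 cells. That was 1.28, 1.33 and 1.17 times the thinned reference of runs 1, 2 and 3. Why the fitted median and the share differ after thinning was not tested. The 6 immediate early genes used as a gate summed to 1014, 1983 and 1642 CPM in these cells, against 16.5, 23.6 and 424 CPM in the reference of runs 1, 2 and 3, with Fosb at 0 in these cells. Their part in the member values was not tested.

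In interferon-responsive microglia (206 cells), marked by genes such as Ifit3 and Isg15, no member was called by the edgeR quasi-likelihood test (Benjamini-Hochberg adjustment), and 6 had an unadjusted p under 0.05. The DESeq2 Wald test also called 0. Of all genes, 1.74% were called higher and 0.311% lower. The median log2 change was 0.03 over the members and -0.05 over all genes, and the members ranged from -0.09 to 0.18. In microglia carrying astrocyte transcripts (281 cells) the counts were 0 by edgeR, 4 at an unadjusted p under 0.05 and 0 by DESeq2, with 0.775% and 0.0176% of all genes called higher and lower. The median there was -0.09, against -0.03 over all genes.

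Reference microglia were also divided by sex-linked transcripts, 4847 cells with Y-linked and no Xist UMIs against 8007 with Xist and no Y-linked UMIs. No member was called by edgeR, 5 had an unadjusted p under 0.05 and DESeq2 called 0, with 0.392% of all genes called higher and 0.312% lower in Y-linked cells. The members' median log2 change was -0.06, but the runs did not go the same way, since 2 members were higher in Y-linked cells in run 1, 73 in run 2 and 2 in run 3. Of the X-linked members, Rps4x had 1241, 1499 and 1380 CPM in Y-linked and 1400, 1450 and 1502 CPM in Xist cells (log2 change -0.08, adjusted p = 0.57 by edgeR). Rpl10, which acts in the joining of the subunits, had -0.05, Rpl39 -0.07 and Rpl36a -0.10, each with the sign of run 2 opposite to that of runs 1 and 3.

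Populations with fewer than 20 cells in a run were not tested. Among the 13 T and NK cells (2, 3 and 8), the members' share was 18.6%, 21.3% and 24.2%, but a single cell gave 74.6% of the UMIs in run 1 and 70.3% in run 2, and microglia markers were present at 11660, 18106 and 4491 CPM. Rpsa had the largest mean log2 ratio to the reference there, at 2.33, with 1.83, 2.34 and 2.83 in the 3 runs. In cycling microglia (24, 7 and 14 cells) 40 of 80 members were below the reference in all 3 runs and 7 above. How many of all genes did so was not counted. Rps27l was highest of the members, with log2 ratios of 1.14, 1.03 and 1.44, followed by Rpsa with 0.73, 0.35 and 0.60. Cells that met an earlier gate are not among these cycling microglia. Emp3/Fxyd5/Tnfsf13b-positive cells held 979, 169 and 168 UMIs of the cycling gate genes in runs 1, 2 and 3, against 723, 315 and 445 in cycling microglia. Immediate early-high microglia held 1, 3 and 90 cells, so only run 3 gave a value of use, 9.57% against 8.71% in its reference. In Ttr-rich cells, a choroid plexus-type population of 32, 32 and 4 cells, the share was 9.01%, 7.28% and 5.63%. With the gate markers out of the total it was 10.2%, 8.98% and 7.45%, and microglia markers were present at 18588, 20706 and 14966 CPM.

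**Figure D5:**
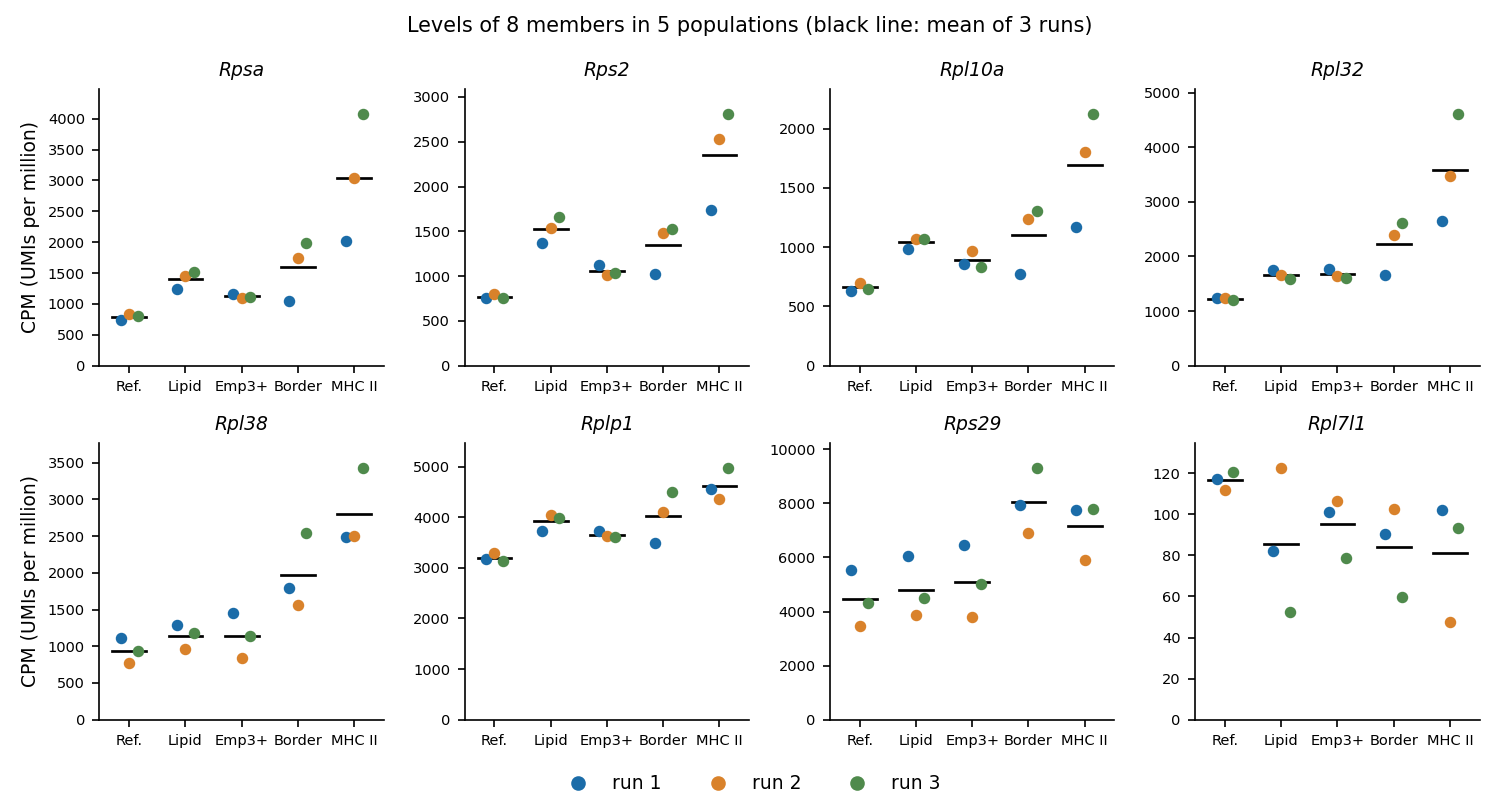
Levels in CPM of 8 members in reference microglia and in lipid-type, Emp3/Fxyd5/Tnfsf13b-positive, border-associated and MHC class II-high cells. Points are runs and black lines the mean of 3 runs, and each panel has its own axis from 0. Rpsa reaches 4073 CPM in MHC class II-high cells of run 3, while Rpl7l1 stays between 47.5 and 122 CPM.

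Of the 3 stalk proteins, Rplp0, the base of the stalk, rose in lipid-type microglia (log2 change 0.52, adjusted p = 1.6e-07 by edgeR), in Emp3/Fxyd5/Tnfsf13b-positive cells (0.43) and in MHC class II-high cells (1.54). In border-associated macrophages its log2 change was 0.54 (adjusted p = 0.094). Rplp2 rose in those 4 populations, by 0.42, 0.30, 1.27 and 0.72 on the log2 scale, in the same order. Rplp1 rose in lipid-type, Ccl3/Ccl4-high and Emp3/Fxyd5/Tnfsf13b-positive cells, by 0.30, 0.30 and 0.23, though with cells thinned its value in Ccl3/Ccl4-high cells was -0.05. Its share of the member UMIs was lower than the reference in all 3 runs in MHC class II-high cells (-0.62) and border-associated macrophages (-0.31). Rps6, the substrate of S6 kinase, rose by 0.39 in lipid-type, 0.25 in Emp3/Fxyd5/Tnfsf13b-positive and 1.32 in MHC class II-high cells.

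The paralogs were at lower levels than the genes they resemble. In reference microglia Rpl22l1 had 167, 150 and 176 CPM against 684, 633 and 641 CPM for Rpl22, Rps27l had 144, 134 and 136 CPM against 1939, 1387 and 1635 CPM for Rps27, and Rpl7l1 had 117, 112 and 121 CPM against 856, 844 and 818 CPM for Rpl7. Rpl22l1 and Rpl22 rose side by side in MHC class II-high cells (1.36 and 1.31), in border-associated macrophages (0.73 and 0.81) and in Emp3/Fxyd5/Tnfsf13b-positive cells (0.37 and 0.30). They did not in 2 small populations that were not tested. Log2 ratios in cycling microglia were 0.62, 0.53 and 0.25 for Rpl22l1 and 0.14, -0.36 and -0.14 for Rpl22. In Ttr-rich cells they were 0.53, 0.78 and 2.05 for Rpl22l1 and 0.09, -0.13 and 0.19 for Rpl22. Rpl7l1 parted from Rpl7, with a fitted log2 change below 0 in each of the 7 populations tested, none of them called. In MHC class II-high cells it had 102, 47.5 and 93.3 CPM, a change of -0.27 ± 0.27 (adjusted p = 0.60 by edgeR), where Rpl7 rose by 1.16 ± 0.30. The difference between the 2 genes was not tested. Rpl3, the counterpart of the muscle gene Rpl3l, had 908, 918 and 870 CPM in the reference and rose in lipid-type (0.34), Emp3/Fxyd5/Tnfsf13b-positive (0.35) and MHC class II-high cells (1.31). How reads shared with pseudogenes or near-identical copies were counted is not given in the sources used here, so levels of single members carry that doubt. The 9 pseudogene names listed had at most 0.106 UMI per cell, and Rps27rt, a copy of Rps27, had 0.156.

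Genes that share the ribosome's regulation were read from lists. Of 19 other genes with cytosolic ribosome proteins or TOP mRNAs, 18 rose in MHC class II-high cells, 14 in Emp3/Fxyd5/Tnfsf13b-positive cells, 8 in lipid-type microglia, 7 in border-associated macrophages and 5 in Ccl3/Ccl4-high microglia, and none fell in any of these. Rack1, a scaffold on the small subunit, rose by 1.59 ± 0.29 in MHC class II-high cells and by 0.38 ± 0.10 in lipid-type microglia. Eef1g, a subunit of elongation factor 1, rose by 0.97 ± 0.13 in lipid-type microglia, beside 0.98 for Rps2. Of 22 ribosome biogenesis genes 7 rose in lipid-type microglia (31.8%, against 6.62% of all genes), with a list median of 0.64 on the log2 scale. In MHC class II-high cells 3 rose (13.6%, against 8.14%), in Ccl3/Ccl4-high microglia 2 (9.09%, against 2.11%), and 1 each in border-associated macrophages and Emp3/Fxyd5/Tnfsf13b-positive cells (4.55%, against 7.75% and 5.95%). The difference between populations was not tested. Those 7 included the snoRNP proteins Nop56 (1.01 ± 0.16, adjusted p = 3.74e-08 by edgeR) and Nop58 (1.00 ± 0.23), nucleolin, Ncl (0.82 ± 0.12), and Nop10 (0.61 ± 0.18). In MHC class II-high cells the list median was 0.12, and in border-associated macrophages -0.34.

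Among 9 regulators of mTOR and of TOP mRNAs, Eif4ebp1, a translation repressor that mTOR controls, rose by 1.38 ± 0.29 in MHC class II-high cells, 0.94 ± 0.25 in border-associated macrophages and 0.40 ± 0.12 in Emp3/Fxyd5/Tnfsf13b-positive cells. Rptor, a subunit of mTOR complex 1, fell by 1.19, 0.76 and 0.32 on the log2 scale in the same populations. In lipid-type microglia Myc was the one of the 9 that was called, with 1.19 ± 0.34 (adjusted p = 0.006 by edgeR). Of 77 mitochondrial ribosomal protein genes tested, whose products form a separate ribosome, 7 rose in MHC class II-high cells (9.09%), 4 in lipid-type microglia (5.19%) and 2 in border-associated macrophages (2.60%), beside backgrounds of 8.14%, 6.62% and 7.75% of all genes. These populations are all set against the same reference cells.

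Across 28 sums of a run and a population, the log2 share of UMIs of the other genes was set beside that of the summed members. Of 3152 genes at 50 CPM or more, the most alike were Fau, whose product includes a small-subunit protein (Pearson r = 0.961), Rack1 (0.959), Tpt1 (0.932), Crip1 (0.918) and Eef1b2 (0.908). Single members set against the other 79 had a median r of 0.929, and 56 of 80 were above 0.9. The lowest were Rpl7l1 with -0.26, Rps27l with 0.557 and Rps29 with 0.708. The sums of a run share a library and its depth, so these are descriptions.

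Between the runs, the levels of members in reference microglia had a median coefficient of variation of 5.58%, from 0.846% to 34.5%. The widest was Rpl35, a large-subunit protein, with 917, 461 and 630 CPM in runs 1, 2 and 3, followed by Rps29 (23.2%), Rps28 (21.5%) and Rpl38 (18.2%). Run 1 was highest and run 2 lowest in each of these 4. Run 1 was counted with software version 3.0.2 and runs 2 and 3 with 3.1.0, per the file headers, and the part of that in the difference was not tested. Within each run the population and the reference were counted alike.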

How the data were processed

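The deposited matrices hold raw counts of UMIs for each gene and barcode in 3 droplet sequencing runs of 1 group. Per the submitters' processing notes, Cell Ranger, Seurat 4.0 and the mm10 build were used, and the counting software was version 3.0.2 for run 1 and 3.1.0 for the others, per the file headers. How barcodes were selected before deposit is not given in the sources used here.

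Cells were kept with at least 1000 UMIs, 500 genes and at most 10% mitochondrial UMIs. A cell took the first marker gate it met, and 155, 82 and 103 cells of runs 1, 2 and 3 met several. Doublets were not removed, and an alternative left out each cell holding Xist as well as Y-linked UMIs. The members, lists, gates and tests were chosen with earlier results of these data known. Shares and CPM values come from these counts, with 1 CPM added before log2 ratios were taken in each run.

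For each population the counts of a run were summed over its cells, and the sums were tested with edgeR 4.0.16 (glmQLFit, glmQLFTest, TMM scaling, filterByExpr, R 4.3.3) with the run as a block, where each run had at least 20 cells, and p-values adjusted by Benjamini-Hochberg over every gene in the fit, at 0.05. All 80 members passed the filter on low counts in every comparison. The run pairs the sums, since they come from 1 library, and deviations of same-run sums from their population means correlated across genes at 0.217 to 0.907. The common dispersion was 0.0369 for MHC class II-high cells and 0.00196 for Emp3/Fxyd5/Tnfsf13b-positive cells. Its prior degrees of freedom were infinite in every comparison but those of Emp3/Fxyd5/Tnfsf13b-positive cells and sex-linked transcripts. An infinite value sets each gene's dispersion to the trend over all genes. The SE given with a log2 change is its absolute value divided by the square root of the F statistic, not an SE over runs.

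Members are named where they are among the 5 with the largest change per direction and comparison that passed the test with the same sign in 3 runs, or are paralogs, X-linked, stalk proteins, Rpsa, Rps6 or Rpl41, or are among the 5 of highest level or next to the minimum. 1 member that met this rule is not reported here. Rps9, Rps14 and Rpl35 were named after their values were seen. Alternatives were DESeq2 1.42.0, other scalings and filters, thinning to 2000 UMIs, stricter gates, a joint fit and leaving out each run, with a minimum of 10 cells per run. The fit was tested on simulated counts with 200 genes changed by known factors. Of genes changed 1.5-fold it recovered 1.49% in Ccl3/Ccl4-high, 3.03% in MHC class II-high and 3.18% in border-associated cells. It recovered 20.9% in interferon-responsive microglia, 22.4% in microglia carrying astrocyte transcripts and 76.1% for sex-linked transcripts. False calls were at most 7.23% of calls, in lipid-type microglia. The changed genes were drawn from all levels, so the values are not for members.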

Additional observations from a re-analysis of the deposited data

How the results depend on the processing

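Numbers of members called, by edgeR unless named, are given for each alternative that moved them by over 1.5 times. The replicate block paired the sums of a run, and with no replicate block 5 members were called in lipid-type microglia, 0 in Ccl3/Ccl4-high microglia, 21 in border-associated macrophages and 0 in Emp3/Fxyd5/Tnfsf13b-positive cells, in place of 41, 33, 64 and 79. In MHC class II-high cells the count was 77 with and without the block. A joint fit of all populations called 17 in lipid-type microglia, 1 in Ccl3/Ccl4-high microglia and 1 in Emp3/Fxyd5/Tnfsf13b-positive cells. The stricter cell filter left 26 in lipid-type and 11 in Ccl3/Ccl4-high microglia. Stricter gates left 17 in Ccl3/Ccl4-high microglia, 28 in border-associated macrophages and 28 in Emp3/Fxyd5/Tnfsf13b-positive cells, and thinning left 0 in Ccl3/Ccl4-high microglia and 36 in border-associated macrophages. Scaling by DESeq2 size factors called 53 in Ccl3/Ccl4-high and 1 in interferon-responsive microglia, and total UMIs without TMM 15 in Ccl3/Ccl4-high microglia and 40 in border-associated macrophages.

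Leaving out 1 run gave 25 to 50 in lipid-type, 1 to 41 in Ccl3/Ccl4-high, 0 to 78 in border-associated, 13 to 78 in MHC class II-high cells and 0 to 1 in microglia carrying astrocyte transcripts. The cause of these moves was not tested. In the settings run, no member was called lower in MHC class II-high, border-associated, lipid-type or Ccl3/Ccl4-high cells. The exceptions were Rpl7l1 in Emp3/Fxyd5/Tnfsf13b-positive cells, called lower in 4 settings, and 1 member in microglia carrying astrocyte transcripts without run 1. Of the settings of single named members, 1833 kept direction and side of the threshold, 26 gained and 208 lost the call, and 2 turned, Rplp1 to -0.0524 and Rpsa to -0.111 in Ccl3/Ccl4-high microglia after thinning. The mean share of UMIs in members of those microglia was 11.2% after thinning and 10.8% in the main setting.

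Scaling moved the split of all calls. With total UMIs without TMM, 49.9% of calls were higher in place of 60.4% in Ccl3/Ccl4-high microglia (73.4% with DESeq2 size factors), 48.0% in place of 61.2% in border-associated macrophages, 36.4% in place of 53.2% in MHC class II-high cells and 59.9% in place of 71.6% in Emp3/Fxyd5/Tnfsf13b-positive cells. The median over all genes moved from -0.20 to -0.42 in MHC class II-high cells, while the members' median stayed 1.55 to 1.57 above it.

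The mean share of UMIs in members moved by over 1 SD in these settings. As a median over cells it was 8.48% in reference microglia, 9.41% in lipid-type microglia, 8.70% in interferon-responsive microglia, 9.98% in Emp3/Fxyd5/Tnfsf13b-positive and 26.7% in T and NK cells. With pseudogene names and 4 more genes it was 9.18% in the reference, 10.8% in lipid-type and 9.54% in interferon-responsive microglia. Stricter gates gave 11.1% in lipid-type, 9.42% in interferon-responsive and 11.7% in Emp3/Fxyd5/Tnfsf13b-positive cells. Thinning gave 10.1%, 9.71% and 24.2% in lipid-type, interferon-responsive and T and NK cells. In lipid-type microglia the stricter cell filter gave 10.1% and leaving out mitochondrial genes 10.9%, and without Xist and Y cells T and NK cells had 25.6%. Stricter gates and thinning were not run for the test in microglia carrying astrocyte transcripts, nor thinning in lipid-type microglia, since a run had fewer than 10 cells, and no joint fit was run for sex-linked transcripts. Ccl3/Ccl4-high and MHC class II-high cells numbered 20 to 40 per run, so members that were not called there may still differ.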

Other observations

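Within the member UMIs of MHC class II-high cells, 28 members were above the reference in all 3 runs and 29 below it. The shifts ran from -1.69 for Rpl7l1 to 0.73 for Rpsa on the log2 scale, with Rps2 and Rpl38 at 0.44, Rpl21 at -0.37 and Rpl13a at -0.36. In border-associated macrophages 22 were above and 35 below in all 3 runs, with Rpl38 at 0.42, Rps28 at 0.39 and Rpl36 at 0.36 at the high end, and Rpl4 at -0.49 and Rpl5 at -0.43 next to Rpl7l1 at -1.11 at the low end. Rpl5, which carries the ribosomal RNA of the central protuberance and binds Mdm2, was also below the reference in Emp3/Fxyd5/Tnfsf13b-positive cells, at -0.12. These members were named after their values were seen, and no test was made of shifts within the members. Where no member was called, 14 were above and 12 below in interferon-responsive microglia, and 18 and 13 in microglia carrying astrocyte transcripts.

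Beyond the 5 genes named above, the next in likeness to the summed members across the 28 sums were Cd74 (Pearson r = 0.890), a gate marker of the MHC class II-high cells, Cd52 (0.878) and the MHC class I gene H2-D1 (0.868).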
